A study of Mus musculus with 30 samples.

Results

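The membrane skeleton of the red cell was followed through 8 genes in MEL cells, a mouse erythroleukemia line that takes on traits of late red cell precursors when it is grown in dimethyl sulfoxide (DMSO). The genes were chosen by name, with earlier results of these data known: Slc4a1, Gypc, Ank1, Epb42, Sptb, Epb41, Dmtn and Tmod1. Each name led to 1 Ensembl gene of the mouse genome GRCm38, so they are 8 of the 54532 genes in the count table. RNA was sequenced in 30 libraries, 5 in each of 6 groups. The groups were WT MEL cells and Abcb10-null MEL cells, each taken at day 0 without DMSO, at day 2 and at day 5 of culture with DMSO at 1.5%. Abcb10 is a transporter of the inner mitochondrial membrane, and the Abcb10-null cells carried a CRISPR/Cas9 cut in its first coding exon. They were 1 clone of 1 line, so that what is particular to that clone and what follows from the missing protein cannot be told apart. All libraries were depleted of ribosomal and globin RNA.

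The membrane of a red cell is held in shape by a flat lattice of spectrin tetramers that lies just under the lipid bilayer. The lattice is tied to the membrane at 2 kinds of site. At the first, ankyrin and protein 4.2 link spectrin to the anion exchanger band 3, and at the second, short actin filaments with protein 4.1, dematin and tropomodulin bind the spectrin ends and reach glycophorin C. These proteins build up as a precursor matures, and inherited loss of several of them gives fragile, misshapen red cells.

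Library totals lay between 9906783 and 20157768 counts. Levels are given as CPM, the count of a gene relative to the size of its library, scaled between libraries by the trimmed mean of M values. A gene was called higher or lower where its Benjamini-Hochberg adjusted p from edgeR's quasi-likelihood test was under 0.05 over all genes tested. The label of the clone was checked on Abcb10 itself, whose level was 67.2 to 79.4 CPM in the Abcb10-null libraries and 112 to 126 in WT at day 0. At day 5 it was 177 to 237 CPM in the Abcb10-null libraries and 1152 to 1264 in WT. The 8 erythroid markers, among them Gata1, Klf1, Tal1, Epor, Alas2, Tfrc and Slc25a37, each had a group mean of at least 1 CPM in every group. Their summed level at day 0 was 1982 to 2236 CPM in WT and 2131 to 2313 in the Abcb10-null cells. At day 5 it was 9646 to 21099 CPM in WT and 4754 to 6082 in the Abcb10-null cells. Tfrc and Alas2 had the highest means in WT at day 5, 7450 and 6021 CPM, against 885 and 2351 in the Abcb10-null cells. Of other lineages, the 6 megakaryocyte markers had the highest sums, 154 to 604 CPM over all libraries. At day 5 these were 257 to 426 CPM in WT and 272 to 604 in the Abcb10-null cells, nearly all of it from Itga2b and Pf4. Granulocyte and monocyte markers summed to 16.7 to 69.2 CPM, and those of mast cells, lymphocytes and fibroblasts to at most 5.79 CPM in any library. In such bulk samples fewer cells of a type and less RNA per cell cannot be told apart, and the part of these markers in the results was not tested.

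The libraries of WT day 2 stood in 2 levels for most of the 8 genes. Replicates 1 and 2 held Ank1 at 485 and 467 CPM, whereas replicates 3, 4 and 5 held 142, 154 and 172. Slc4a1, Sptb, Epb41 and Dmtn split the same way. Left out together, these 2 libraries changed calls and values that rest on WT day 2. Shares of all genes called are given only for fits with all 5 libraries of a group, not for fits without these 2. Values without those 2 libraries are given below for many, though not all, of those results. The Abcb10-null day 2 libraries varied as well. Their replicates 2 and 5 deviated from the group mean of log2 CPM by −1.94 and −1.89 for Slc4a1, and by 0.47 and 0.19 for Ank1. Replicate 2 also lay below that mean for Gypc, Epb41, Epb42, Dmtn and Tmod1, and above it for Sptb. No pair of Abcb10-null libraries was left out together.

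All 8 genes rose between day 0 and day 5 in both genotypes, and all 8 were lower in the Abcb10-null cells than in WT at day 5, with no overlap of the 5 libraries against the 5 in any of them. Among all genes tested, 36.5% were called higher at day 5 than at day 0 in WT and 33.9% in the Abcb10-null cells. At day 5, 17.8% of all genes tested were called lower in the Abcb10-null cells than in WT. These are shares of edgeR calls, and how many of all genes had no overlap of libraries was not counted. Because the 8 genes were chosen with earlier results of these data known, the shares beside them are a description only. The rise in WT was largest for the anion exchanger Slc4a1 and smallest for Dmtn and Epb41. The deficit of the Abcb10-null cells at day 5 was largest for Slc4a1 and Ank1. Of the 7 genes tested at day 0, before any DMSO, Sptb, Ank1, Dmtn and Tmod1 were already lower. There 16.2% of all genes tested were called lower, and Gypc, Epb41 and Epb42 did not pass the test. Slc4a1 was not tested at day 0.

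**Figure D1:**
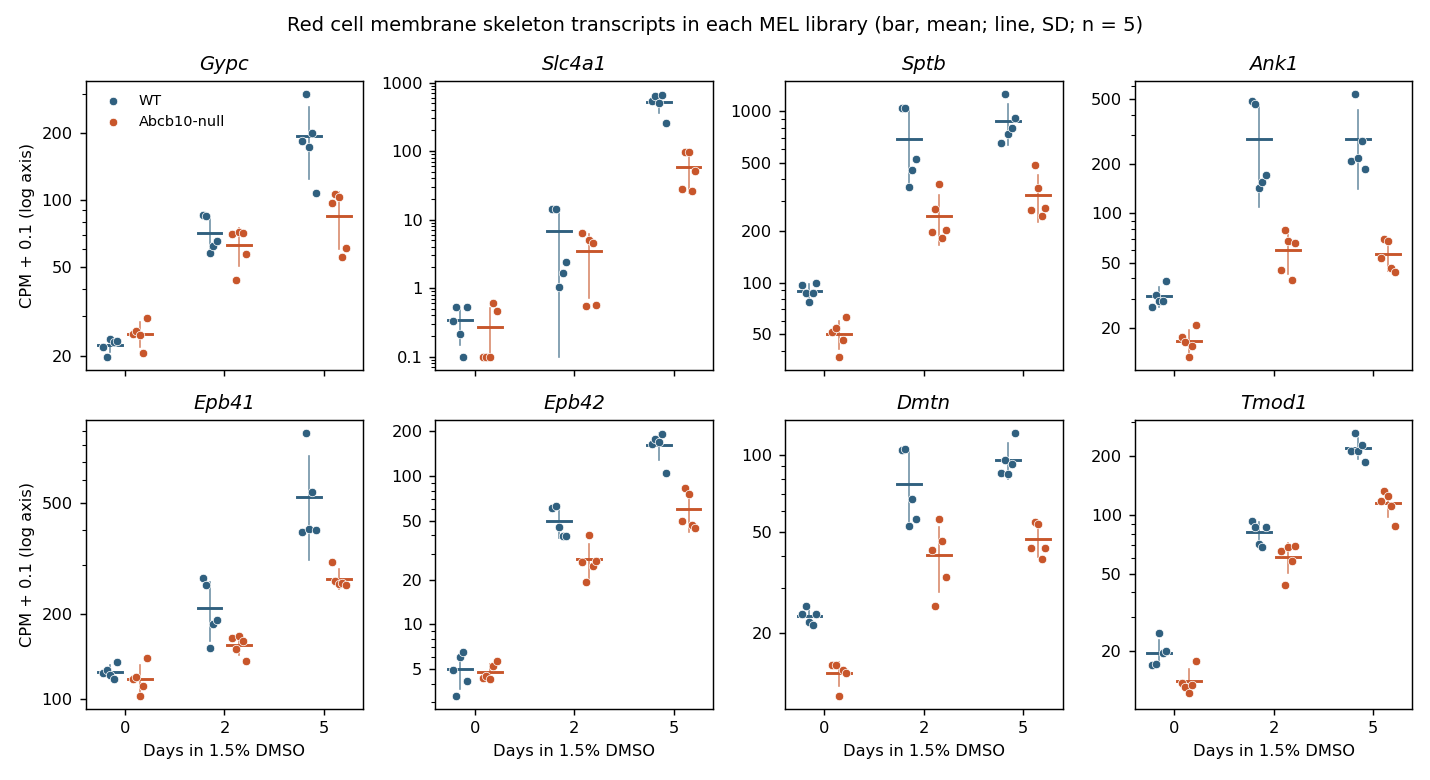
Level of each of the 8 genes in each library, in CPM with 0.1 added on a log axis, against days in DMSO for WT and Abcb10-null MEL cells. Points are libraries, bars are means and lines are the SD (n = 5), cut at 0 CPM where the SD exceeded the mean. At day 5 every WT point sits above every Abcb10-null point, and at day 2 WT Ank1 and Sptb fall into an upper pair and a lower group of 3.

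Sptb encodes β-spectrin, the chain that carries the binding sites for ankyrin, protein 4.1 and actin. The gene lies on chromosome 12 (chr12:76580488-76710547, GRCm38, minus strand) and has 36 merged exons. The promoter stretches below are shown because the members rose together and their letters can be searched for the words of erythroid factors. Promoters were taken from RefSeq's table of mouse promoters (GRCm38.p6) for 4 of the 8 genes, Sptb, Epb41, Epb42 and Tmod1. No promoter of Slc4a1, Ank1, Dmtn or Gypc was searched, and for Gypc this does not mean that the table held none. The bases shown are those before the start that lie outside annotated exons, which left none for Tmod1. The search used 4 GATA words, written AGATAA or AGATAG and the same 2 with T as their first letter, and the CACCC word CCNCNCCC, as bound by the KLF family, on both strands. Capitals mark the matches, and overlapping matches run together.
Sptb, chr12:76710548-76710797, minus strand: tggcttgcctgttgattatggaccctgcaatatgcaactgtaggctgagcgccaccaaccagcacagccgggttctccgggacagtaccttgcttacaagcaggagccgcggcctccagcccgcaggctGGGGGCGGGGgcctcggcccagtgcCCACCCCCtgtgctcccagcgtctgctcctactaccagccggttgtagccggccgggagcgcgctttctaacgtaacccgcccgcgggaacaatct
Epb41, chr4:132075322-132075563, minus strand: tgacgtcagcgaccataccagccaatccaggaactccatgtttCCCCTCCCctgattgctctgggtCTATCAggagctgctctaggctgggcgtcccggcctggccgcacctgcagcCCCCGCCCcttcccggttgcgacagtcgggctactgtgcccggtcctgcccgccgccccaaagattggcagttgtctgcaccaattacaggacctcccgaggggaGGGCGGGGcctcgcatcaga
Epb42, chr2:121037073-121037127, minus strand: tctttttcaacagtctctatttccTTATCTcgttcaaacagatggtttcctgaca
The Sptb stretch (250 bases) held 3 CACCC matches and no GATA word, and the Epb41 stretch (242 bases) 1 GATA word and 3 CACCC matches. The Epb42 stretch (55 bases, ending 196 bases before the start) held 1 GATA word and no CACCC match. Over the full 250 bases, exons included, these counts were the same, and Tmod1 held no GATA word and 4 CACCC matches. Among all 32851 promoters of 250 bases, 26.5% held a GATA word and 45.9% a CACCC match. Epb41 had 2 further RefSeq starts, whose stretches held no GATA word and 0 and 6 CACCC matches. A match is only a match of letters, and no binding was measured.

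At day 0 Sptb stood at 97.2, 87.0, 76.8, 86.3 and 99.0 CPM in WT replicates 1 to 5 and at 51.1, 54.5, 36.9, 46.4 and 62.8 in the Abcb10-null libraries. The Abcb10-null libraries were all below WT, and the log2 fold change was −0.83 ± 0.11 (SE; edgeR adjusted p = 8.84e-06). At day 2 the WT libraries held 1045, 1036, 363, 455 and 526 CPM and the Abcb10-null libraries 197, 268, 373, 182 and 201. Only Abcb10-null replicate 3 reached the lowest WT library, and the log2 fold change was −1.54 ± 0.32 (edgeR adjusted p = 0.00525), or −0.92 without WT replicates 1 and 2 (edgeR adjusted p = 0.0451). At day 5 WT held 655, 1255, 731, 799 and 908 CPM and the Abcb10-null cells 265, 482, 357, 244 and 271. The Abcb10-null mean was 37.2% of the WT mean, at a log2 fold change of −1.44 ± 0.22 (edgeR adjusted p = 0.00029). The fold changes of β-spectrin transcript at days 2 and 5 lay within their standard errors of each other. Its rise came early in both genotypes, with log2 fold changes of 2.93 ± 0.27 in WT and 2.31 ± 0.20 in the Abcb10-null cells from day 0 to day 2. From day 2 to day 5 the changes of 0.35 ± 0.28 and 0.40 ± 0.22 did not pass the test (edgeR adjusted p = 0.362 and 0.184). Without WT day 2 replicates 1 and 2, the WT rise to day 2 was 2.36 on the log2 scale, and the change from day 2 to day 5 was 0.88 and passed (edgeR adjusted p = 0.0132).

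Ank1 encodes ankyrin-1, the adaptor that joins β-spectrin to band 3, and lies on chromosome 8 (chr8:22974844-23150497, plus strand, 47 merged exons). At day 0 it stood at 26.8, 31.4, 29, 29.2 and 38.2 CPM in WT and at 17.3, 16.2, 13.2, 15.4 and 20.6 in the Abcb10-null libraries. The groups did not overlap, at a log2 fold change of −0.91 ± 0.12 (edgeR adjusted p = 7.34e-06). With all 30 libraries in one fit it was −0.90 and narrowly missed the threshold (edgeR adjusted p = 0.0522). At day 2 the WT values were 485, 467, 142, 154 and 172 CPM against 44.7, 79.4, 67.5, 39.2 and 65.4 in the Abcb10-null cells, so that even the lower WT libraries lay above every Abcb10-null library. The log2 fold change was −2.32 ± 0.38 (edgeR adjusted p = 0.0026), or −1.44 without WT replicates 1 and 2 (edgeR adjusted p = 0.0057). At day 5 WT held 208, 536, 217, 277 and 186 CPM and the Abcb10-null cells 53.0, 69.9, 67.6, 46.2 and 44.0. WT replicate 2 was high, and the Abcb10-null mean was 19.7% of the WT mean, at a log2 fold change of −2.36 ± 0.28 (edgeR adjusted p = 5.73e-05). No change of ankyrin-1 transcript after day 2 passed the test in either genotype. In WT the change from day 2 to day 5 was 0.01 ± 0.39 on the log2 scale (edgeR adjusted p = 0.983), and in the Abcb10-null cells it was −0.08 ± 0.20 (edgeR adjusted p = 0.788). The rise from day 0 to day 2 was 3.19 ± 0.35 in WT and 1.87 ± 0.20 in the Abcb10-null cells. Leaving out WT day 2 replicates 1 and 2 gave WT changes of 2.38 to day 2 and 0.79 after it, the second of which did not pass (edgeR adjusted p = 0.0870).

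Epb42 encodes protein 4.2, which binds ankyrin and band 3 and is a relative of the transglutaminases without their enzyme activity. It lies on chromosome 2 (chr2:121017891-121037072, minus strand, 15 merged exons). At day 0 it was low in both genotypes, at 4.82, 3.21, 5.94, 6.46 and 4.05 CPM in WT and 4.29, 4.36, 4.17, 5.19 and 5.58 in the Abcb10-null cells. These groups overlapped, and the log2 fold change was −0.06 ± 0.19 (edgeR adjusted p = 0.818). At day 2 the levels were 60.7, 62.4, 45.0, 39.2 and 39.7 CPM in WT and 26.3, 19.3, 39.7, 24.7 and 26.7 in the Abcb10-null cells. Abcb10-null replicate 3 lay within the WT range and the other 4 below it, at a log2 fold change of −0.91 ± 0.21 (edgeR adjusted p = 0.00735). The call ended without WT replicates 1 and 2, at −0.64 (edgeR adjusted p = 0.0668). At day 5 WT held 164, 178, 169, 192 and 106 CPM and the Abcb10-null cells 49.9, 82.7, 76.0, 46.8 and 44.9. WT replicate 5 was the lowest of its group and still above every Abcb10-null library, at a log2 fold change of −1.44 ± 0.21 (edgeR adjusted p = 0.000214). From day 0 to day 5 Epb42 rose by 5.04 ± 0.22 on the log2 scale in WT and by 3.68 ± 0.19 in the Abcb10-null cells, and it rose in both intervals in both genotypes, in WT also without those 2 libraries (3.11 and 1.89).

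Slc4a1 encodes band 3, the chloride and bicarbonate exchanger that is the main anchor of the ankyrin sites, and lies on chromosome 11 (chr11:102348824-102366203, minus strand, 25 merged exons). At day 0 it was all but silent, with 19 counts over the 5 WT libraries and 15 over the 5 Abcb10-null libraries, and it did not pass the filter for a test between them. At day 2 WT replicates 1 and 2 held 14.4 and 14.1 CPM and replicates 3 to 5 held 0.934, 1.59 and 2.27. The Abcb10-null libraries held 6.33, 0.446, 4.93, 4.44 and 0.466 CPM. The groups overlapped, and the log2 fold change of −1.08 ± 0.83 did not pass (edgeR adjusted p = 0.336). On leaving out WT replicates 1 and 2 the sign turned, to 0.99 (edgeR adjusted p = 0.41). With every gene of at least 1 count in the fit, the difference of all 10 libraries was −1.03 and passed (edgeR adjusted p = 0.00676). By day 5 WT had reached 535, 637, 500.1, 652 and 253 CPM and the Abcb10-null cells 28, 96.5, 96.0, 25.7 and 50.6. Every WT library lay far above every Abcb10-null library, whose mean was 11.5% of the WT mean. The log2 fold change was −3.13 ± 0.40 (edgeR adjusted p = 9.3e-05). Band 3 transcript had the largest change of the 8 after day 2, at 6.29 ± 0.71 on the log2 scale in WT and 4.17 ± 0.63 in the Abcb10-null cells. In WT it rose by 4.74 ± 0.90 from day 0 to day 2. These WT changes became 2.74 to day 2 and 8.23 after it without WT day 2 replicates 1 and 2.

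Gypc encodes glycophorin C, a sialoglycoprotein that protein 4.1 ties to the actin junctions, and lies on chromosome 18 (32528322 to 32560034, minus strand, 4 merged exons). At day 0 it stood at 21.9, 19.7, 23.7, 22.9 and 23.1 CPM in WT and at 24.8, 25.6, 24.5, 20.4 and 29.5 in the Abcb10-null cells. The groups overlapped, at a log2 fold change of 0.16 ± 0.10 (edgeR adjusted p = 0.201). At day 2 the values were 85.9, 84.5, 58.0, 61.8 and 65.5 CPM in WT and 70.2, 43.6, 71.7, 71.2 and 57.3 in the Abcb10-null cells. They overlapped again, at a log2 fold change of −0.24 ± 0.17 (edgeR adjusted p = 0.296), or −0.02 without WT replicates 1 and 2 (edgeR adjusted p = 0.937). At day 5 WT held 184, 299, 174, 200.0 and 107 CPM and the Abcb10-null cells 96.4, 106, 103, 55.5 and 60.5. The lowest WT library was just above the highest Abcb10-null library, and the log2 fold change was −1.21 ± 0.26 (edgeR adjusted p = 0.00276). Of the 3 days tested, day 5 was the only one at which glycophorin C transcript passed the test between the genotypes. It rose by 1.44 ± 0.22 on the log2 scale from day 2 to day 5 in WT (edgeR adjusted p = 0.000414), and its change of 0.43 ± 0.20 in the Abcb10-null cells did not pass (edgeR adjusted p = 0.111).

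Epb41 encodes protein 4.1, which strengthens the bond of spectrin to actin, and lies on chromosome 4 (chr4:131923413-132075321, minus strand, 26 merged exons). It was the most abundant of the 8 by CPM at day 0, at 123, 127, 122, 118 and 135 CPM in WT and 117, 119, 102, 111 and 139 in the Abcb10-null cells. The groups overlapped, at a log2 fold change of −0.09 ± 0.07 (edgeR adjusted p = 0.357). At day 2 WT held 269, 255, 151, 185 and 191 CPM and the Abcb10-null cells 165, 150.4, 167, 161 and 136. The overlap came from WT replicate 3, and the log2 fold change was −0.49 ± 0.16 (edgeR adjusted p = 0.0348). That call rested on 6 single libraries: leaving out any of WT replicates 1 and 2 and Abcb10-null replicates 1, 3, 4 and 5 ended it, the highest edgeR adjusted p being 0.0976. With both WT replicates 1 and 2 left out the fold change was −0.22 (edgeR adjusted p = 0.272). At day 5 WT held 391, 883, 403, 543 and 398 CPM, with replicate 2 high, and the Abcb10-null cells 308, 262, 257, 258 and 255. The Abcb10-null mean was 51.2% of the WT mean, at a log2 fold change of −0.98 ± 0.21 (edgeR adjusted p = 0.00304). More of the rise of Epb41 came after day 2 than before it, with log2 changes of 0.75 ± 0.13 and then 1.32 ± 0.23 in WT, and 0.43 ± 0.10 and then 0.78 ± 0.10 in the Abcb10-null cells. The early rise in the Abcb10-null cells missed the threshold with all 30 libraries in one fit, at 0.40 (edgeR adjusted p = 0.0520), and the WT rises were 0.53 and then 1.50 without WT day 2 replicates 1 and 2.

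Dmtn encodes dematin, an actin-bundling protein of the junctions, and lies on chromosome 14 (chr14:70601263-70636048, minus strand, 17 merged exons). At day 0 it stood at 23.6, 25.5, 22.1, 21.5 and 23.8 CPM in WT and 14.9, 14.9, 11.3, 14.3 and 13.8 in the Abcb10-null cells. All Abcb10-null libraries were lower, at a log2 fold change of −0.76 ± 0.10 (edgeR adjusted p = 7.49e-06). At day 2 WT held 104, 105, 52.3, 66.8 and 56.2 CPM and the Abcb10-null cells 42.4, 25.5, 55.7, 46.0 and 33.1. Abcb10-null replicate 3 exceeded WT replicate 3 alone, and the log2 fold change was −0.98 ± 0.25 (edgeR adjusted p = 0.0111). Leaving out WT replicates 1 and 2 ended this call, at −0.58 (edgeR adjusted p = 0.102). At day 5 the levels were 85.0, 95.3, 84.1, 91.9 and 121 CPM in WT and 43.1, 54.5, 53.4, 38.9 and 43.1 in the Abcb10-null cells. The groups stood apart, at a log2 fold change of −1.04 ± 0.13 (edgeR adjusted p = 8.94e-05). Dematin transcript, like that of β-spectrin, did not pass the test for a rise after day 2, at 0.32 ± 0.20 in WT and 0.20 ± 0.18 in the Abcb10-null cells on the log2 scale (edgeR adjusted p = 0.226 and 0.427). With WT day 2 replicates 1 and 2 left out, that WT change was 0.63 and passed (edgeR adjusted p = 0.0116), after a rise of 1.36 to day 2, against 1.72 ± 0.18 with all 5 libraries.

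Tmod1 encodes tropomodulin-1, the cap of the slow-growing end of the short actin filaments, and lies on chromosome 4 (chr4:46038935-46116032, plus strand, 14 merged exons). At day 0 it stood at 16.8, 17, 24.6, 19.4 and 19.9 CPM in WT and 13.6, 12.9, 12, 13.2 and 17.6 in the Abcb10-null cells. Abcb10-null replicate 5 alone reached the WT range, and the log2 fold change was −0.50 ± 0.12 (edgeR adjusted p = 0.00369). At day 2 WT held 93.6, 86.8, 70.9, 68.1 and 86.8 CPM and the Abcb10-null cells 65.0, 43.7, 68.6, 57.6 and 69.5. The groups overlapped at their edges, at a log2 fold change of −0.47 ± 0.15 (edgeR adjusted p = 0.0288). It, too, ended on leaving out any of 5 single libraries (WT replicates 1, 2 and 5, Abcb10-null replicates 1 and 4), the highest edgeR adjusted p being 0.0764, and on leaving out both WT replicates 1 and 2, at −0.35 (edgeR adjusted p = 0.158). At day 5 WT held 214, 263, 214, 229 and 186 CPM and the Abcb10-null cells 118, 133, 125, 111 and 87.3. The Abcb10-null mean was 51.8% of the WT mean, at a log2 fold change of −0.96 ± 0.13 (edgeR adjusted p = 0.000154). Tropomodulin-1 transcript rose in both intervals in both genotypes, by 3.50 ± 0.14 in all in WT and by 3.06 ± 0.13 in the Abcb10-null cells on the log2 scale. Of its exon bases, 32.6% are shared with Tstd2 on the opposite strand, and the strand setting of the counting is not given in the sources used here. Tstd2 was higher in the Abcb10-null cells at day 0, at a log2 fold change of 0.29 ± 0.06 (edgeR adjusted p = 0.00155). It was not called at day 2, at 0.39 ± 0.14 (edgeR adjusted p = 0.0521), or at day 5, at −0.01 ± 0.12 (edgeR adjusted p = 0.945).

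The comparison of the genotypes asked at which stage of DMSO the skeleton genes differed. At day 0, 4 of the 7 genes tested were lower in the Abcb10-null cells and none higher, where 16.2% of all genes tested were called lower and 19.7% higher. The genes not called were Gypc, Epb41 and Epb42. At day 2, 6 of 8 were lower, all but Gypc and Slc4a1, against 16.9% of all genes tested called lower and 14.9% called higher. At day 5 all 8 were lower, against 17.8% of all genes tested called lower and 19.8% called higher. The median log2 fold change of the 8 genes was −0.94 at day 2 and −1.32 at day 5, and that of the 7 tested at day 0 was −0.50, while the median of all genes tested lay near 0 (−0.00 at day 0). When WT day 2 replicates 1 and 2 were left out, only Sptb and Ank1 remained called at day 2, with no share of all genes given for that fit.

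**Figure D2:**
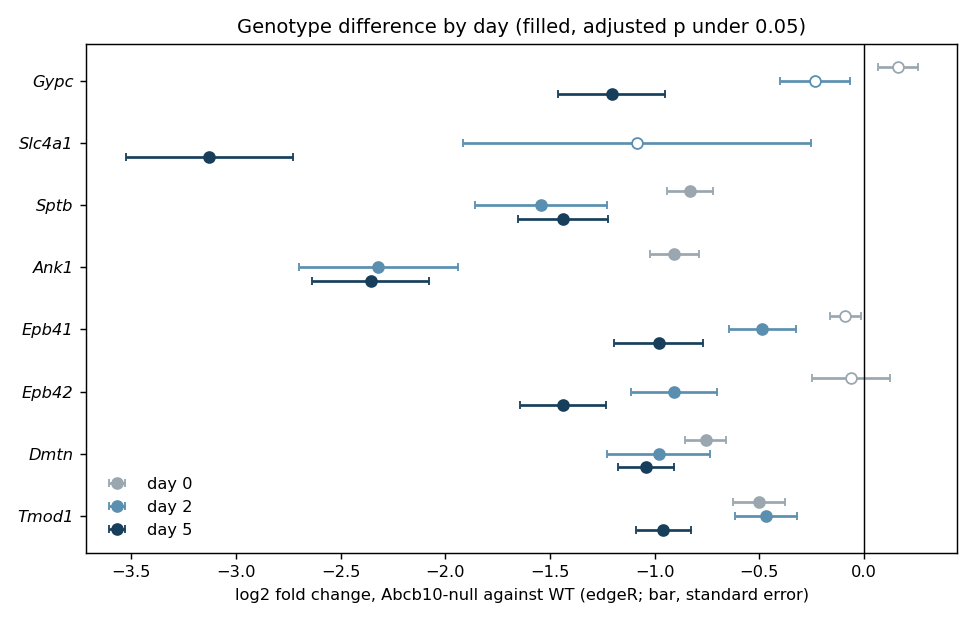
log2 fold change of each gene, Abcb10-null against WT, at days 0, 2 and 5 of DMSO, with the standard error from edgeR as the bar. Filled points passed an adjusted p under 0.05 and open points did not, and Slc4a1 was not tested at day 0. All 8 points of day 5 are filled and lie between −3.13 and −0.96.

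The comparisons of days asked when each gene rose. In WT all 8 genes were higher at day 2 than at day 0, where 31.5% of all genes tested were called higher, and all 8 were also higher without WT day 2 replicates 1 and 2. From day 2 to day 5, 5 of 8 were called in WT and all 5 were higher, where 33.4% of all genes tested were called in either direction and 2217 of 13025 were called higher. Leaving out WT day 2 replicates 1 and 2 brought this to 7 of 8, all but Ank1, with no share of all genes given for that fit. In the Abcb10-null cells all 7 genes tested were higher at day 2 than at day 0, against 23.1%, and 4 of 8 were higher at day 5 than at day 2, against 14.4%. Over the whole course all 8 rose in both genotypes, where 36.5% of all genes in WT and 33.9% in the Abcb10-null cells were called higher. The median log2 fold change of the 8 from day 0 to day 5 was 3.25 in WT and 2.23 in the Abcb10-null cells. The 2 intervals share the libraries of day 2.

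**Figure D3:**
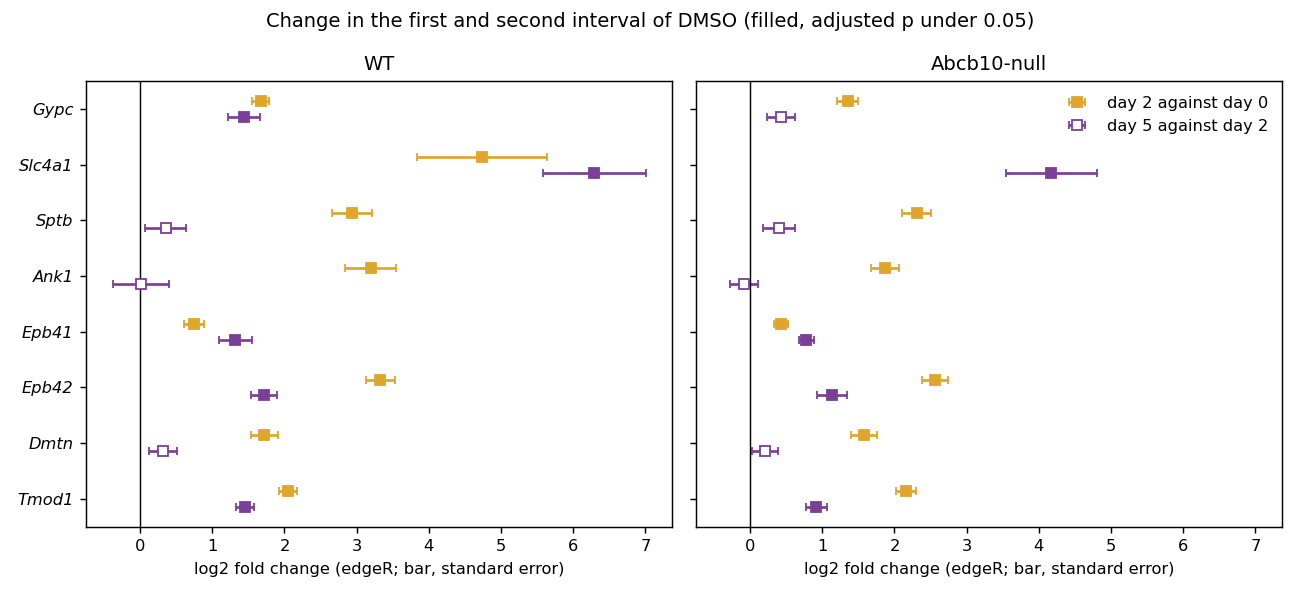
log2 fold change of each gene from day 0 to day 2 and from day 2 to day 5 in WT (left) and Abcb10-null cells (right), with standard errors from edgeR. Filled squares passed an adjusted p under 0.05, and Slc4a1 was not tested from day 0 to day 2 in the Abcb10-null cells. Ank1, Sptb and Dmtn have open squares near 0 for the second interval in both genotypes, and the second square of Slc4a1 lies at 6.29 in WT.

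The genes thus differed in the timing of their rise, which was described as the share of the log2 CPM rise from day 0 to day 5 that was reached by day 2. In WT it was 96.5% for Ank1, 86.4% for Sptb and 82.0% for Dmtn. It was 66.0% for Epb42, 58.6% for Tmod1 and 54.5% for Gypc. Epb41, with 36.1%, and Slc4a1, with 34.2%, had the lowest shares. The order of these 2 depends on the scale. By edgeR's log2 fold changes in WT, Slc4a1 had risen by 4.74 of 11.02 at day 2 and Epb41 by 0.75 of 2.07, which puts Epb41 below Slc4a1. Without WT day 2 replicates 1 and 2 the shares were lower, between 22.3% for Slc4a1 and 75.7% for Ank1, and Ank1, Sptb and Dmtn still had the highest. In the Abcb10-null cells the shares ran from 34.2% for Epb41 and 41.9% for Slc4a1 to 103% for Ank1, and Gypc stood at 76.8%. No test was made on these shares.

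Whether the rise itself differed between the genotypes was tested as the interaction of genotype and day. From day 0 to day 2 the rises of Ank1 and Epb42 were smaller in the Abcb10-null cells, by a log2 difference of −1.34 ± 0.40 for Ank1 (edgeR adjusted p = 0.0206) and −0.79 ± 0.27 for Epb42 (edgeR adjusted p = 0.0408). These were 2 of 8 genes, where 10.8% of all genes tested were called lower. Neither was called without WT day 2 replicates 1 and 2, where the differences were −0.52 for Ank1 (edgeR adjusted p = 0.161) and −0.55 for Epb42 (edgeR adjusted p = 0.188). From day 2 to day 5 edgeR called 0 of 8, against 2.94% of all genes tested called lower, although 4 had an unadjusted p under 0.05 and DESeq2 called 1, Gypc. The difference for Gypc was −1.01 ± 0.31 (edgeR adjusted p = 0.0607). Without WT day 2 replicates 1 and 2 edgeR called 1 gene, Slc4a1, at −4.08 (adjusted p = 0.026).

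Over the whole course, from day 0 to day 5, the rises of 4 of the 8 genes were smaller in the Abcb10-null cells, where 14.7% of all genes tested were called lower. The log2 difference was −1.34 ± 0.29 for Gypc (edgeR adjusted p = 0.00118) and −1.43 ± 0.32 for Ank1 (edgeR adjusted p = 0.00146). It was −0.87 ± 0.23 for Epb41 (edgeR adjusted p = 0.00634) and −1.35 ± 0.29 for Epb42 (edgeR adjusted p = 0.000965). For Slc4a1 the difference of −2.56 ± 1.42 carried the largest error and did not pass (edgeR adjusted p = 0.183), though it did, at −2.52, with every gene of at least 1 count in the fit (edgeR adjusted p = 0.00024). Sptb, at −0.58 ± 0.26, Tmod1, at −0.44 ± 0.19, and Dmtn, at −0.27 ± 0.17, did not pass either (edgeR adjusted p = 0.0909, 0.0766 and 0.239). These 3 were already lower at day 0, as was Ank1, whose interaction passed.

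Abcb10-null cells at day 5 were also set beside WT cells at day 2, a comparison chosen after seeing the data, since the levels of several members looked alike there. edgeR called 2 of the 8 members higher in Abcb10-null day 5, where 23.2% of all genes tested were higher, and 3 lower, where 23.8% were lower. Slc4a1 was higher by 3.16 ± 0.66 on the log2 scale (edgeR adjusted p = 0.00136) and Tmod1 by 0.49 ± 0.13 (edgeR adjusted p = 0.00541). Ank1 was lower, at −2.34 ± 0.34 (edgeR adjusted p = 8.65e-05), as were Sptb, at −1.08 ± 0.29 (edgeR adjusted p = 0.00655), and Dmtn, at −0.73 ± 0.19 (edgeR adjusted p = 0.00673). Gypc (0.24 ± 0.19), Epb41 (0.34 ± 0.14) and Epb42 (0.28 ± 0.20) did not pass the test. With WT day 2 replicates 1 and 2 left out, Sptb and Dmtn were no longer called and Epb41 and Epb42 were called higher, at 0.60 and 0.54.

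Levels of different genes were compared per kilobase of merged exon length. That length joins all annotated exons of a gene, used in these cells or not, so the order also depends on the annotation. In WT at day 0 the order of mean CPM per kilobase was Gypc (9.55), Epb41 (7.83), Sptb (7.35), Tmod1 (4.95), Dmtn (2.38), Ank1 (2.29), Epb42 (0.903) and Slc4a1 (0.0495). The neighbours Gypc and Epb41, Epb41 and Sptb, and Dmtn and Ank1 overlapped in their libraries. By day 5 in WT Slc4a1 had moved from the last place to the first, at 105 CPM per kilobase, followed by Gypc at 82.7, Sptb at 71.6 and Tmod1 at 56.1. Epb41 (32.9), Epb42 (29.8) and Ank1 (21.1) came next, and Dmtn was the lowest at 9.74. Only Ank1 and Dmtn among these neighbours did not overlap. In the Abcb10-null cells at day 5 Slc4a1 stood in place 5, at 12.1 CPM per kilobase. There Gypc led at 36.2, followed by Tmod1 (29.1), Sptb (26.6) and Epb41 (16.8), and Epb42 (11.1), Dmtn (4.75) and Ank1 (4.15) came after Slc4a1. Only the neighbours Sptb and Epb41, and Epb42 and Dmtn, did not overlap. Slc4a1 overlapped Epb41 and Epb42, so its place among them is not settled.

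Several members have a relative that serves other cell types, and the ratio of the red cell form to that relative was taken in each library, per kilobase. β-spectrin of the red cell against the widely expressed Sptbn1 had a median ratio of 2.27 in WT and 0.816 in the Abcb10-null cells at day 0. At day 5 the ratio was 18.7 in WT and 3.95 in the Abcb10-null cells, with library ranges of 17.5 to 21.3 and 3.04 to 6.07. Ank1 over Ank3 went from 5.48 to 194 in WT and from 2.33 to 46.6 in the Abcb10-null cells. The day 5 library ranges were wide, 144 to 567 and 14.7 to 93.9. Ank3 was low there, with 175 counts over the WT libraries and 279 over the Abcb10-null libraries. Tmod1 over the ubiquitous Tmod3 was below 1 in every library at day 0, and at day 5 its median was 2.20 in WT and 0.963 in the Abcb10-null cells.

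Epb42 over the transglutaminase Tgm2 rose in WT from a median of 0.127 at day 0 to 2.06 at day 5, where the libraries ranged from 0.692 to 2.73. Its medians in the Abcb10-null cells were 0.154 at day 0 and, at days 2 and 5, 0.339 and 0.332. Slc4a1 over Slc4a2 at day 5 was 32.4 in WT and 2.31 in the Abcb10-null cells. Epb41 over Epb41l2 moved least, from 4.09 to 7.62 in WT and from 3.72 to 5.12 in the Abcb10-null cells. These ratios are descriptions, and no test was made on them.

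**Figure D4:**
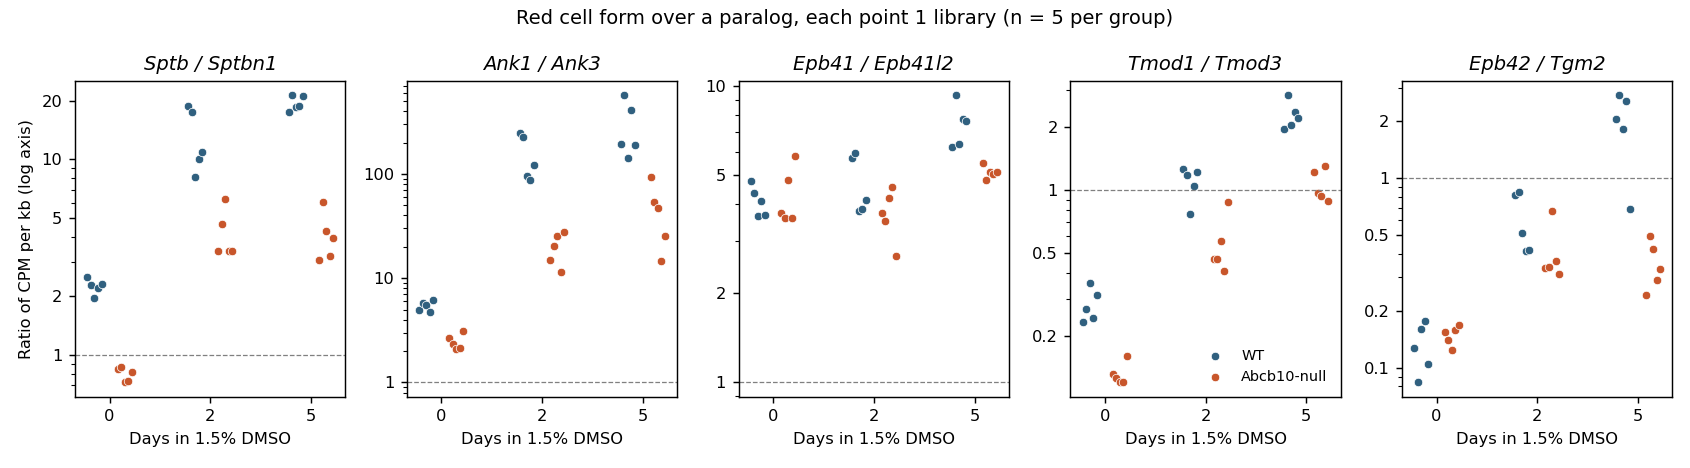
Ratio of the red cell form to a relative used in other cells, in CPM per kilobase on a log axis, for each library of WT and Abcb10-null cells at days 0, 2 and 5. The dashed line marks equal CPM per kilobase of merged exon length. At day 5 the WT libraries lie above the Abcb10-null libraries in all 5 panels. Epb42 over Tgm2 stays below 1 in every Abcb10-null library, in every WT library at days 0 and 2, and in WT day 5 replicate 5.

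The other proteins of the skeleton were called in both directions. Of 16 listed, 15 were tested, and at day 5 in the Abcb10-null cells 5 were lower and 3 higher. Their median log2 fold change was −0.10. Among all genes tested 17.8% were lower and 19.8% higher. Stom, stomatin, was lower by a log2 fold change of −0.46, and Capza2, an actin capping subunit, was higher at 0.39. Actb (−0.09), Add2 (−0.41) and Capza1 (−0.19) were not called. At day 0 the list had 3 lower and 4 higher, and at day 2 it had 4 lower and 2 higher, or 1 lower and 0 higher without WT day 2 replicates 1 and 2. Add3, γ-adducin, was chosen after its values were seen: it was higher in the Abcb10-null cells at day 5 by 1.90 on the log2 scale, with no call at day 0.

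The next list held integral proteins of the red cell membrane. All 17 listed were tested, and at day 5 in the Abcb10-null cells 9 were lower and none higher, against 17.8% of all genes tested lower and 19.8% higher. Their median log2 fold change was −0.54. Among the most abundant, Aqp1, the water channel, was lower by −1.81 on the log2 scale and Ermap, an erythroid adhesion protein, by −1.63. Cd47, the signal that restrains phagocytes, was lower by −0.90 and Bsg, basigin, by −0.60, whereas Xk (−0.09) was not called. At day 0, 8 of the 17 were lower and 1 higher, against 16.2% and 19.7% of all genes tested. At day 2, 6 were lower and none higher, against 16.9% and 14.9%, and 3 were lower without WT day 2 replicates 1 and 2. At day 0 Cd47 was the 1 called higher, at 0.63.

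The last list held relatives of the members that are also used outside the red cell. Several were present in these cells, with means over all 30 libraries of 270 CPM for Tmod3 and 132 CPM for Sptan1. Of 20 listed, 14 were tested at day 5, and 2 were lower and 3 higher in the Abcb10-null cells, against 17.8% and 19.8% of all genes tested. The median log2 fold change of these 14 genes was 0.21. Sptan1, a spectrin also used by other cells, was higher by 1.85 on the log2 scale at day 5. It fell in WT from day 0 to day 5 by 1.27, and its change of 0.18 in the Abcb10-null cells was not called. Tgm2 was higher by 0.87 and Sptbn1 by 0.82, and Epb41l2 was lower by −0.41, a call lost on leaving out any of 9 of the 10 libraries. Tmod3 (0.17), Slc4a2 (0.21) and Ank3 (0.64) were not called at day 5.

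**Figure D5:**
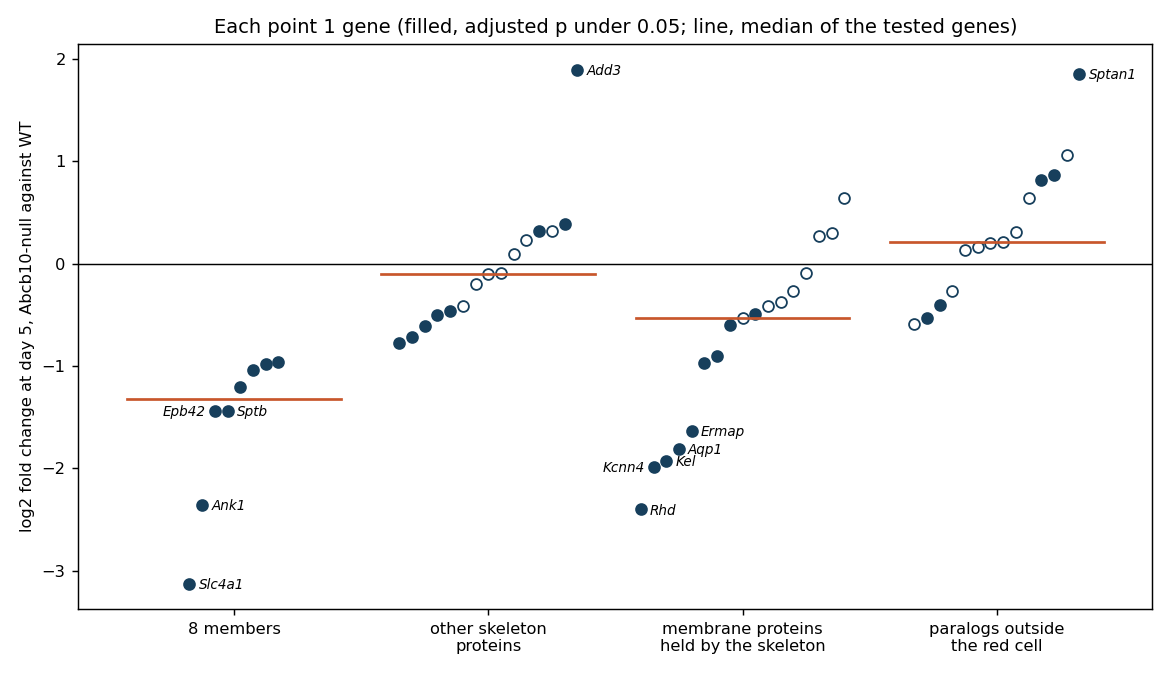
log2 fold change at day 5, Abcb10-null against WT, of every tested gene among the 8 members and 3 lists of related genes. Filled points passed an edgeR adjusted p under 0.05, and the line is the median of the tested genes. All 8 members lie below 0, with a median of −1.32, against medians of −0.10, −0.54 and 0.21 in the lists.

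Across the 30 libraries the log2 CPM of the 8 genes was correlated in each pair, with Pearson's r between 0.708 for Slc4a1 and Ank1 and 0.986 for Epb42 and Tmod1. Sptb and Dmtn stood at 0.974. The points share the groups, the days and the scaling of the libraries, so these are descriptions. Of the 12144 genes with a mean of at least 1 CPM that were compared, those most like the mean pattern of the 8 were D5Ertd579e (0.980), Hemgn (0.979), St3gal2 (0.978), Dpf3 (0.978) and Dennd4c (0.976). For single members the nearest gene was Tal1 for Gypc (0.979), St3gal2 for Sptb (0.971) and Ppip5k1 for Ank1 (0.975). It was Herc1 for Epb41 (0.982), Apol10c-ps for Epb42 (0.983), Ninl for Dmtn (0.964) and Apol11b for Tmod1 (0.985).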

How the data were processed

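RNA of both genotypes was depleted of ribosomal and globin RNA and made into stranded libraries. The authors aligned reads to GRCm38 with STAR 2.6.1b and counted them per Ensembl gene with featureCounts 1.6.3. The deposited values are raw counts per gene, neither normalized nor filtered. The strand and multimapping settings of the counting are not given in the sources used here.

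Groups and replicate numbers came from the sample labels, which call the 5 libraries of a group biological replicates. Nothing says that they came from separate cultures, so p-values measure the spread between these libraries, which may be in part technical. Of 75 same-numbered pairs of libraries in different groups, 22 deviated together with a correlation over 0.1 (range −0.51 to 0.52), so numbers were not taken as pairs. Replicates of a group differed by a chi-square of at least 6.48 per degree of freedom, so none was a copy.

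Counts were tested in R 4.3.3 with edgeR 4.0.16 (TMM, filterByExpr, glmQLFit, glmQLFTest, Benjamini-Hochberg over all genes tested). Each comparison used only its own groups: 10 libraries, or 20 for the interaction of genotype and day. Standard errors are the log2 fold change over the square root of F. The tests were tried on simulated data first. CPM used TMM-scaled library sizes over all 30 libraries, log2 CPM had a prior count of 2, and lengths and positions came from GENCODE vM21. Alternatives were DESeq2 1.42.0, its size factors in edgeR, filters of at least 1 count and of at least 10 counts in every library, all 30 libraries in one fit, a replicate block, and leaving out each library. Leaving out WT day 2 replicates 1 and 2 together, and comparing Abcb10-null day 5 with WT day 2, were chosen after seeing the data. The members and the lists were chosen with earlier results of these data known. All 8 members were named, with the 6 genes of each list highest in mean CPM, apart from a few results that are not reported here.

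Of 54532 genes, 9219 had no count. For 37 identifiers, with 0.0116% of the counts, no entry was found in the annotation used.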

Additional observations from a re-analysis of the deposited data

Results flagged for a closer look

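In 3 of the 48 sets of 5 libraries (8 genes in 6 groups), 1 library stood far from the other 4 by Dixon's criterion, which chance alone gives in about 1 of 20 sets. Ank1 stood at 536 CPM in WT day 5 replicate 2, with the others at 186 to 277. Epb41 stood at 308 CPM in Abcb10-null day 5 replicate 1, with the others at 255 to 262. Tmod1 stood at 17.6 CPM in Abcb10-null day 0 replicate 5, with the others at 12 to 13.6. The cause was not tested.

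In 6 of 24 tests the change over days differed between the genotypes by the interaction of genotype and day. Between day 0 and day 2 this held for Ank1 (log2 difference −1.34) and Epb42 (−0.79), where 10.8% of all genes tested were called lower. Neither was called without WT day 2 replicates 1 and 2. Between day 0 and day 5 the change differed for Gypc (−1.34), Ank1 (−1.43), Epb41 (−0.87) and Epb42 (−1.35), where 14.7% were called lower. Between day 2 and day 5 it differed for none, against 2.94% called lower. The intervals share libraries, so the tests are not separate.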

How the results depend on the processing

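The 102 log2 fold changes of single members were recomputed under each alternative. Apart from leaving out a library, 618 of 652 values kept their sign and their side of the threshold, 11 lost their call, 16 gained one and 7 changed sign. On leaving out 1 library it was 1200 of 1260, with 21 lost, 11 gained and 28 of changed sign. The count called between genotypes at day 5 was 8 under each alternative. That from day 0 to day 5 was 8 in both genotypes, except for 7 with the filter of 10 counts, which Slc4a1 did not pass. The interaction from day 0 to day 5, with 4 called, gave 6 with a filter of 1 count and 5 with 10 counts.

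The count at day 2 between the genotypes, 6, was 2 without WT day 2 replicates 1 and 2, and 4 to 6 on leaving out 1 library. The interaction from day 0 to day 2, with 2 called, gave 1 with all 30 libraries in one fit, 0 without both WT day 2 libraries, and 1 to 3 on leaving out 1 library. The interaction from day 2 to day 5, with 0 called, gave 1 with DESeq2, 2 with a filter of 1 count, 1 with all 30 libraries, 1 with the replicate block, 1 without both WT day 2 libraries, and 0 to 1 on leaving out 1 library.

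Changed signs were all of values that had not passed. Without WT day 2 replicates 1 and 2 the day 2 genotype difference of Slc4a1 was 0.99. The interactions from day 0 to day 2 then became 1.54 for Slc4a1 and 0.21 for Dmtn, and from day 2 to day 5 −0.51 for Sptb. The WT change of Ank1 from day 2 to day 5 was −0.056 with a filter of 1 count and −0.013 with 10 counts. The replicate block turned the interaction of Sptb from day 2 to day 5 to −0.012. It changed 3 of the 102 values, also bringing Gypc over that interval to an edgeR adjusted p of 0.0422 and Epb41 of Abcb10-null day 5 against WT day 2 to 0.025.

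On leaving out 1 library, Epb42 at day 0 between genotypes ranged from −0.19 to 0.035, and Ank1 from day 2 to day 5 from −0.33 to 0.28 in WT and from −0.20 to 0.053 in the Abcb10-null cells. Interactions from day 0 to day 2 ranged from −0.87 to 0.28 for Slc4a1 and from −0.015 to 0.17 for Tmod1. Those from day 2 to day 5 ranged from −0.13 to 0.31 for Sptb, −0.36 to 0.31 for Ank1 and −0.23 to 0.068 for Dmtn. The Epb42 interaction from day 0 to day 2 lost its call in 10 of 20 such fits (edgeR adjusted p up to 0.0805). With all 30 libraries in one fit, Ank1 at day 0 between genotypes was −0.90 (edgeR adjusted p = 0.0522). The cause of these changes was not tested. The low counts of Slc4a1 at day 0 limit its early comparisons.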

Other observations

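WT day 5 replicate 5 was the lowest of its group for Slc4a1, Gypc, Epb42, Ank1 and Tmod1 and the highest for Dmtn, at 121 CPM. Abcb10-null day 5 replicates 1 and 4 held Slc4a1 at 28 and 25.7 CPM, against 96.5 and 96.0 in replicates 2 and 3.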
